A study of Brachypodium distachyon with 35 samples.

Results

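Hydrogen peroxide treatment of Brachypodium distachyon seedlings was described through the transcripts of all 96 BdbZIP genes, the basic leucine zipper (bZIP) family of this grass, in 2 treated samples (H2O2 for 1 h and for 6 h) of the 35 samples of the series. Seedlings of the inbred line Bd21-3, grown on agar with Murashige and Skoog salts, received 10 mM H2O2, and the untreated control was CK1, which the labels name as the control of both samples. The labels name no mutant or transgene. They give the age of all 3 samples as 20 days and the methods treat seedlings of 2 weeks. Each condition was 1 sample of total RNA from seedlings, and how many plants it held is not given in the sources used here. The method was quantitative real-time PCR (qPCR), with 1 deposited Ct per gene. A Ct is the number of PCR cycles needed before the fluorescence of a product rises above a set threshold, and more template gives a lower Ct. The reference was BdGAPD, the glyceraldehyde-3-phosphate dehydrogenase gene. The level of a gene is given as minus dCt, the Ct of BdGAPD minus the Ct of the gene, and the log2 change is the difference of 2 such levels. The limits for counting a gene were a ratio of 2 or more or of 0.5 or less, the fold part of the study's definition, which also asks for a p-value that was not used here. With 1 sample per condition no test was possible, and the counts below describe these samples. In whole seedlings, fewer cells of a type and less RNA per cell cannot be told apart.

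bZIP factors bind DNA as dimers through a basic region, and the adjoining leucine zipper sets the partner. Hydrogen peroxide is both a damaging oxidant and a signal in plants, and several bZIP groups are known from Arabidopsis to act in oxidative and defense responses. TGA factors activate defense and detoxification genes and work with the redox-regulated co-activator NPR1. Relatives of AtbZIP16 and AtbZIP68, in the G-box binding group, are themselves sensitive to redox state in Arabidopsis. Other groups act in abscisic acid signaling (ABF, AREB and ABI5), in light signaling (HY5), in the unfolded protein response of the endoplasmic reticulum, and in vascular development and osmotic sensing (RF2a and RF2b of rice, VIP1 of Arabidopsis).

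The Ct column of H2O2 6 h was the same in all 97 rows as the column labeled PEG 1 h. Deposited fold changes could be rebuilt from it in 93 of 96 genes for H2O2 6 h but in 5 for PEG 1 h, so the column was read as H2O2 6 h and PEG 1 h was left out. The fold changes deposited for H2O2 followed the Ct of the treated sample minus that of CK1 without the reference gene, in 92 of 96 genes at 1 h. A later Ct is thus a higher value there and a lower level here. Signs in the following are opposite to those deposited values, except in genes whose Ct moved earlier by less than that of BdGAPD. Such genes, for example BdbZIP18, are negative in both. They make up most of the 53 genes below CK1 at 1 h and of the 57 at 6 h. Wells were named through the study's stress table. The study's tissue table gives other names to the same Ct rows, with only 1 of 93 matched wells named alike. Under the names used here, genes with the same primers differed by a median of 0.26 to 1.38 Ct over the series, and under the other names by 1.24 to 13.6.

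At 1 h, 18 of the 96 BdbZIP genes exceeded CK1 by 2-fold or more (18.8%), and 26 were reduced to 0.5-fold or less (27.1%). The median log2 change was -0.25, with values from -4.13 to 7.43. Among genes with Ct below 35 in CK1 and both H2O2 samples, BdbZIP87 and BdbZIP81 were highest and BdbZIP29 and BdbZIP88 were lowest. In CK1, BdGAPD had a Ct of 17.90, against 15.59 at 1 h and 16.68 at 6 h, so the reference itself was earlier by 2.31 and 1.22 cycles. The median Ct of the 96 genes was 27.22 in CK1, 25.38 at 1 h and 26.61 at 6 h. Most genes thus also crossed the threshold earlier in the treated samples, and the sign of a change depends on how much of this shift is removed. With the median Ct of the 96 genes in place of BdGAPD, every log2 change was higher by 0.46 at 1 h and by 0.61 at 6 h. The balance then turned, with 26 higher and 17 lower genes at 1 h and 27 higher and 10 lower at 6 h. With no reference, 77 genes were higher and 2 lower at 1 h.

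**Figure D1:**
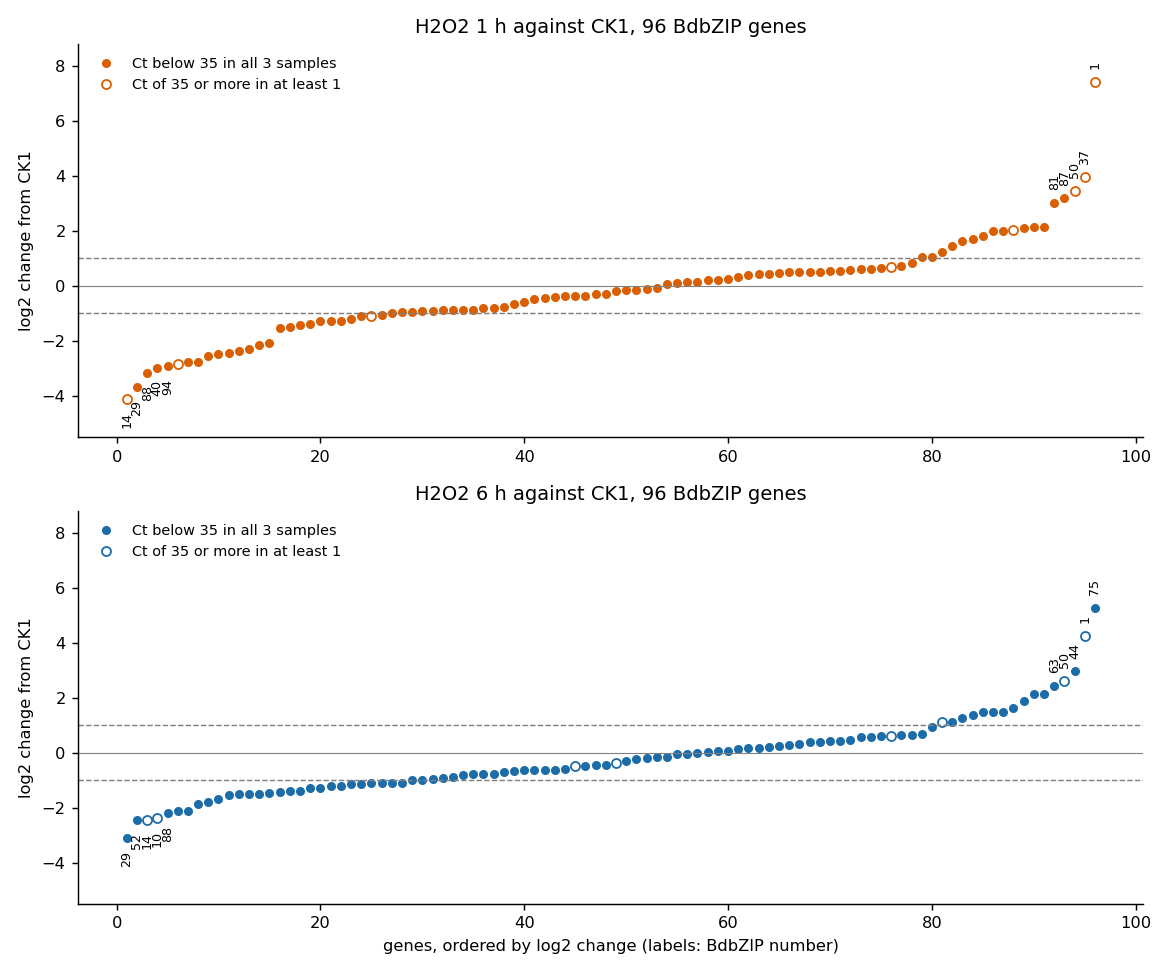
Log2 change from CK1 of each of the 96 BdbZIP genes after H2O2 for 1 h (upper panel) and 6 h (lower panel), ordered within each panel, with dashed lines at 2-fold and 0.5-fold and open circles for genes with a Ct of 35 or more in CK1 or an H2O2 sample. At 1 h the values run from -4.13 to 7.43 and at 6 h from -3.12 to 5.26, and the highest gene at 6 h that is not an open circle is BdbZIP75.

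The error of a well was estimated from 8 pairs of genes for which the study lists identical primers. The wells of 1 pair gave log2 changes up to 3.94 apart at 1 h and up to 3.09 apart at 6 h, both in BdbZIP50 and BdbZIP51. From these differences the SD of a single log2 change was 1.44 at 1 h and 0.91 at 6 h. At 1 h, 5 genes were higher and 5 lower by more than 2.88, which is 2 SD. At 6 h, 8 were higher and 8 lower by more than 1.83. Without that pair, a choice made after seeing the data, the SD was 1.13 and 0.52. Then 5 genes were higher and 13 lower by more than 2 SD (2.25) at 1 h, and 16 were higher and 28 lower (1.04) at 6 h. A 2-fold change at 1 h is thus smaller than the well error, and single genes near the limits are not separable from it. Neither the error of the BdGAPD well, common to both genes, nor differences among plants enter this SD.

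BdbZIP87 (bradi4g35370, chromosome 4, a homologue of rice OsbZIP35) stood highest among these genes at 1 h. Its Ct was 27.46 in CK1, 21.97 at 1 h and 25.30 at 6 h. The log2 change was 3.18 at 1 h, which is 9.06-fold, and 0.94 at 6 h. The level at 1 h, -6.38, was also above that of the 10 other treated seedling samples set against CK1, which ran from -10.87 to -6.53. The gap to the highest of them, 6-BA for 1 h, was smaller than the well error SD of 1.44 at 1 h.

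BdbZIP81 (bradi4g27100, chromosome 4), in the TGA group and a homologue of rice OsbZIP08, had Ct values of 29.90 in CK1, 24.57 at 1 h and 27.21 at 6 h. It was 8.11-fold higher at 1 h and 2.77-fold at 6 h. Its level of -8.98 at 1 h was the highest of the 34 samples of the series. CK1, at -12.00, was itself the lowest of the 13 seedling samples that consist of CK1 and the treatments set against it, and the 10 other treatments ran from -10.13 to -9.20. With CK2 as the control its log2 change at 6 h was -0.69.

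BdbZIP80 (bradi4g26670, chromosome 4), another TGA group gene, had Ct values of 29.81, 25.37 and 28.41 in CK1, at 1 h and at 6 h. Its log2 change was 2.13 at 1 h and 0.18 at 6 h. BdbZIP2 (bradi1g05480, chromosome 1), a homologue of rice RISBZ1, which activates seed storage protein genes, went from 23.89 in CK1 to 19.48 at 1 h and 20.81 at 6 h. This gave log2 changes of 2.10 and 1.86, so that BdbZIP2 was above the limit at both times while BdbZIP80 was above it only at 1 h. For both genes CK1 was the lowest of the 13 seedling samples.

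BdbZIP44 (bradi2g52590, chromosome 2) was 4.41-fold higher at 1 h and 7.78-fold at 6 h, from Ct values of 32.68, 28.23 and 28.50. With CK3 as the control the same gene was lower, at -4.20 and -3.38. BdbZIP3 (bradi1g07310, chromosome 1) had Ct values of 32.73, 28.42 and 31.55, and its log2 change was 2.00 at 1 h and -0.04 at 6 h. Its level at 1 h, -12.83, was the highest of the 13 seedling samples, with -13.77 in the next, heat for 6 h. That gap was under the well error SD of 1.44.

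Of the genes with the lowest changes at 1 h, BdbZIP29 (bradi2g06790, chromosome 2), a homologue of rice OsbZIP19 in the RF2 and VIP1 groups, had the largest difference. Its Ct was 29.65 in CK1, 31.02 at 1 h and 31.55 at 6 h, although that of BdGAPD was lower in both treated samples. The log2 change was -3.68 at 1 h, which is 0.0780-fold, and -3.12 at 6 h. With CK2 as the control these values were -0.95 and -0.39, within the limits, and with CK3 they turned to 0.91 and 1.47. CK1, at a level of -11.75, was the highest of the 13 seedling samples for this gene, and the 10 other treatments ran from -16.00 to -13.47.

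BdbZIP88 (bradi4g36587, chromosome 4) had Ct values of 27.64, 28.49 and 28.63, giving log2 changes of -3.16 at 1 h and -2.21 at 6 h. BdbZIP40 (bradi2g40580, chromosome 2) had 31.38, 32.04 and 31.15, giving -2.97 at 1 h and -0.99 at 6 h. BdbZIP40 at 1 h, with a level of -16.45, was the lowest of the 13 seedling samples, with -15.44 in the next, 6-BA for 6 h. That gap was under the well error SD of 1.44. For BdbZIP88 the lowest level was in another treatment, cold for 1 h, at -13.63 against -12.90 at 1 h of H2O2.

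**Figure D2:**
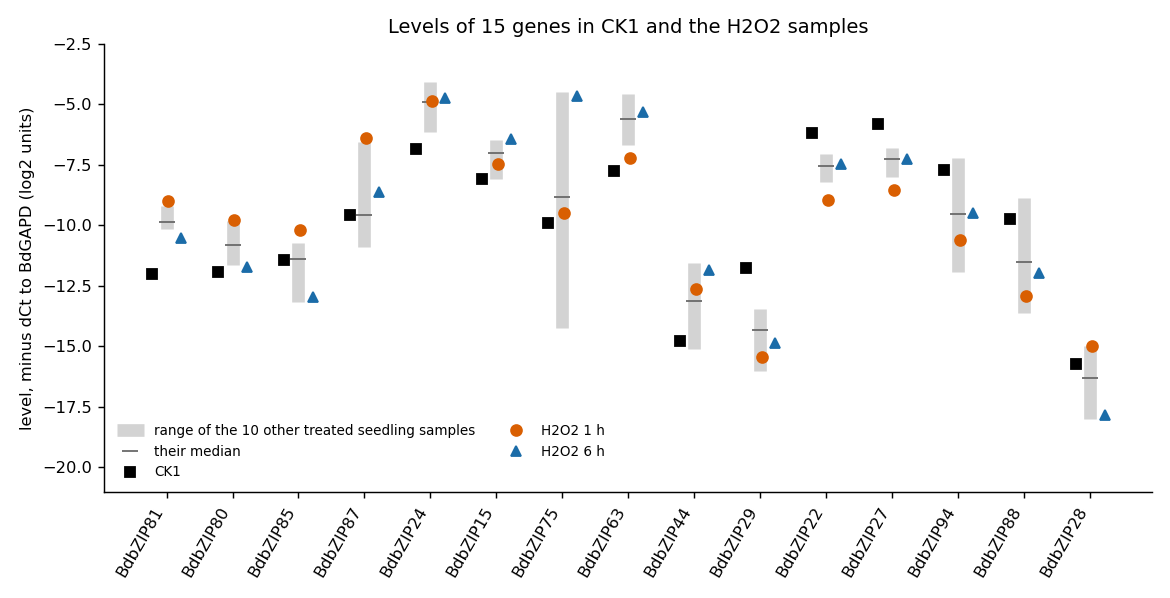
Level (minus dCt to BdGAPD, log2 units) of 15 named genes in CK1 (square), H2O2 1 h (circle) and H2O2 6 h (triangle), beside the range and median of the 10 other treated seedling samples set against CK1 (grey bar and dash). For BdbZIP81, BdbZIP80, BdbZIP24 and BdbZIP63 the CK1 square lies below the grey bar, and for BdbZIP29, BdbZIP22 and BdbZIP27 above it.

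At 6 h, 16 genes exceeded CK1 by 2-fold or more (16.7%), and 28 were at 0.5-fold or less (29.2%), with a median log2 change of -0.42. Both times share the CK1 sample, so their values are set side by side and their likeness was not measured. BdbZIP75, BdbZIP44, BdbZIP63, BdbZIP68, BdbZIP24 and BdbZIP2 had the highest changes among genes with Ct below 35, and BdbZIP29, BdbZIP52, BdbZIP88, BdbZIP61, BdbZIP28 and BdbZIP66 the lowest.

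BdbZIP75 (bradi4g02570, chromosome 4), a homologue of rice OsbZIP88, had a Ct of 27.80 in CK1, 25.09 at 1 h and 21.32 at 6 h. It was 38.3-fold higher at 6 h and 1.32-fold at 1 h, the largest difference of any gene between the 2 times. Its log2 change at 6 h was 5.26, and 4.85 with CK2 but 0.46 with CK3 as the control, under the 2-fold limit. Its level of -4.64 at 6 h was second of the 13 seedling samples, after 6-BA for 6 h at -4.48. The level of this gene varied widely among the other treatments, with a lowest value of -14.23 in heat for 1 h.

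BdbZIP63 (bradi3g22040, chromosome 3), a homologue of rice OsbZIP65, had Ct values of 25.65, 22.82 and 22.00. Its log2 change was 0.52 at 1 h and 2.43 at 6 h. CK1 was the lowest of the 13 seedling samples, at -7.75, and H2O2 for 6 h was near the middle of them, at -5.32 against a median of -5.59 in the 10 other treatments. BdbZIP68 (bradi3g41820, chromosome 3) amplified late in CK1, at a Ct of 34.56, and earlier at 1 h (30.54) and 6 h (31.20). Its changes of 1.71 and 2.14 turned to -4.60 and -4.17 with CK3 as the control.

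Among the lowest at 6 h, BdbZIP52 (bradi3g00300, chromosome 3) had Ct values of 31.43, 31.26 and 32.68, and log2 changes of -2.14 and -2.47. BdbZIP61 (bradi3g09340, chromosome 3), a homologue of rice OsbZIP02, had 25.88, 25.65 and 26.79, and changes of -2.08 and -2.13. BdbZIP66 (bradi3g38840, chromosome 3) had 31.18, 31.35 and 31.83, and changes of -2.48 and -1.87. These 3 genes were low at both times against CK1, while BdbZIP28, described below, was low only at 6 h. For BdbZIP61 and BdbZIP66 CK1 was the highest of the 13 seedling samples. With CK2 as the control BdbZIP61 was at 0.04 and -0.01 and BdbZIP66 at -1.02 and -0.41. BdbZIP52 was then at -1.56 and -1.89.

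Set directly against each other, without CK1, the 2 H2O2 samples differed by a median log2 change of 0.12 from 1 h to 6 h. At 6 h, 14 genes stood 2-fold or more above their 1 h level (14.6%) and 18 at 0.5-fold of it or less (18.8%). BdGAPD crossed the threshold at 15.59 and 16.68 in these samples, and with no reference gene the median was -0.96, with 2 genes higher and 46 lower. Among genes with Ct below 35, BdbZIP75 was higher by 4.86, BdbZIP40 by 1.98, BdbZIP63 by 1.91 and BdbZIP43 by 1.89. At the other end, BdbZIP28 stood at -2.83, BdbZIP85 at -2.77, BdbZIP87 at -2.24 and BdbZIP3 at -2.04. The well error SD of this comparison was 0.74, and 16 of the 96 genes differed by more than 2 SD (1.48). The 8 named here are among them, which follows in part from their choice as the extremes of the same values. With no reference gene BdbZIP40, BdbZIP63 and BdbZIP43 were at 0.89, 0.82 and 0.80, under 2-fold, and BdbZIP75 at 3.77. BdbZIP43 (bradi2g50220, chromosome 2), like BdbZIP29 a homologue of rice OsbZIP19, had Ct values of 25.00, 25.23 and 24.43 in CK1, at 1 h and at 6 h. It was thus below CK1 at 1 h, by a log2 change of -2.54, and within the limits at 6 h, at -0.65.

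The TGA group has 14 members in this family. Against CK1, 4 of the 14 were past the upper limit and 4 past the lower one at 1 h, with a median of 0.24. At 6 h, 3 were higher and 5 lower, with a median of -0.34 that turned to 0.27 with the median Ct as the reference and to 0.09 with CK2 as the control. The median at 1 h turned to -0.66 with the mean of the 3 controls and to -1.65 with CK3. Of all 96 genes, 18.8% and 27.1% were past these limits at 1 h and 16.7% and 29.2% at 6 h. The subgroups of the TGA factors are given separately below.

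Of the 7 relatives of TGA9, TGA10 and PAN, which act in flower and anther development in Arabidopsis, 4 were at most 0.5-fold at 6 h against 1 h and none was higher, with a median of -1.55. Over all 96 genes 18.8% were at most 0.5-fold and 14.6% were higher by 2-fold or more in this comparison. The median was -1.41 with the median Ct as the reference and -2.64 with none, and each of these scalings shifts all genes by the same amount. BdbZIP85 (bradi4g33740, chromosome 4) had Ct values of 29.31, 25.76 and 29.62 and was above CK1 by 1.24 at 1 h and below it at 6 h, at -1.53. BdbZIP80 and BdbZIP81 were at -1.95 and -1.55 between the 2 times.

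BdbZIP49 (bradi2g55570, chromosome 2) differed by -1.79 from 1 h to 6 h, from Ct values of 25.15 and 28.03. BdbZIP48 has the same primers, and its Ct values of 26.35 and 27.35 gave 0.09, so these wells of 1 assay did not repeat each other. Of the other 2 relatives, BdbZIP18 stood at log2 changes from CK1 of -1.50 and -1.16, and BdbZIP36 at 0.47 and 0.31. BdbZIP49, BdbZIP80, BdbZIP81 and BdbZIP85 had their highest level of the 13 seedling samples at 1 h of H2O2, which held for 9 of all 96 genes. Their levels were -9.56, -9.78, -8.98 and -10.17, against -9.62, -9.81, -9.20 and -10.72 in the next sample. Each gap was smaller than the well error SD of 1.44 at 1 h. BdbZIP48, with the primers of BdbZIP49, ranked 12 of 13 from the top at 1 h. With CK3 as the control, BdbZIP80 and BdbZIP85 were at -0.30 and -0.21 at 1 h.

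A further 5 genes are relatives of TGA2 and TGA6, the TGA factors most closely tied to NPR1 in Arabidopsis. None was at most 0.5-fold at either time, against 27.1% of all 96 genes at 1 h and 29.2% at 6 h. Their medians were 0.13 at 1 h and 0.65 at 6 h. These medians were -2.70 and -1.93 with CK3 as the control, and -0.56 and 0.06 with the mean of the 3 controls. BdbZIP24 (bradi1g64060, chromosome 1), a homologue of HBP-1b(c38), was 4.00-fold higher at 1 h and 4.35-fold at 6 h, from Ct values of 24.76, 20.45 and 21.42. BdbZIP5, also a homologue of HBP-1b(c38), had Ct values of 23.90, 20.94 and 21.19, and changes of 0.65 and 1.49. CK1 was the lowest of the 13 seedling samples for both genes, and with CK3 as the control BdbZIP24 was at -2.70 and -2.58. BdbZIP30 (-0.12 and 0.65), BdbZIP34 (-0.86 and -0.62) and BdbZIP45 (0.13 and -0.06) stayed within the limits. The 2 relatives of TGA1, BdbZIP62 and BdbZIP96, were at -1.43 and -1.27 at 1 h and at -1.21 and -0.78 at 6 h. Without the reference gene both were above CK1, BdbZIP62 at 0.88 and 0.01 and BdbZIP96 at 1.04 and 0.44.

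The RF2 and VIP1 relatives are the largest group listed, with 17 genes. At 1 h, 9 of them (52.9%) were at most 0.5-fold, against 27.1% of all genes, and at 6 h 8 of them (47.1%), against 29.2%. Their median was -1.11 at 1 h and -0.78 at 6 h. With 1 gene of each same-primer pair, 7 of 14 were at most 0.5-fold at 1 h and 6 of 14 at 6 h. Over all genes left by that choice, 24 of 88 were at most 0.5-fold at 1 h and 25 of 88 at 6 h. The medians turned to 1.20 and 0.44 without the reference gene, and with CK2 as the control they were -0.34 and 0.06. For 7 of the 17 genes CK1 was the highest of the 13 seedling samples, which held for 12 of all 96 genes, so these 7 stood below CK1 in each of the 12 treated seedling samples set against it.

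BdbZIP22 and BdbZIP27, which share primers, illustrate this group. The Ct of BdbZIP22 (bradi1g63170, chromosome 1) was 24.09 in CK1, 24.53 at 1 h and 24.15 at 6 h, and that of BdbZIP27 (bradi1g76690, chromosome 1) was 23.69, 24.13 and 23.95. Both were at -2.75 at 1 h, and at -1.28 and -1.48 at 6 h. At 1 h their levels of -8.94 and -8.54 were the lowest of the 13 seedling samples, and CK1 was the highest. The next lowest levels were -8.22 and -7.99, within the well error SD of 1.44. BdbZIP94 (bradi5g14497, chromosome 5) and BdbZIP95, a second pair with the same primers, were at -2.92 and -1.54 at 1 h and at -1.78 and -1.52 at 6 h. With CK2 as the control BdbZIP22, BdbZIP27 and BdbZIP94 were at 0.33, 0.22 and 0.03 at 6 h. Within the group BdbZIP87 and BdbZIP68 were past the upper limit at 1 h, at 3.18 and 1.71.

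**Figure D3:**
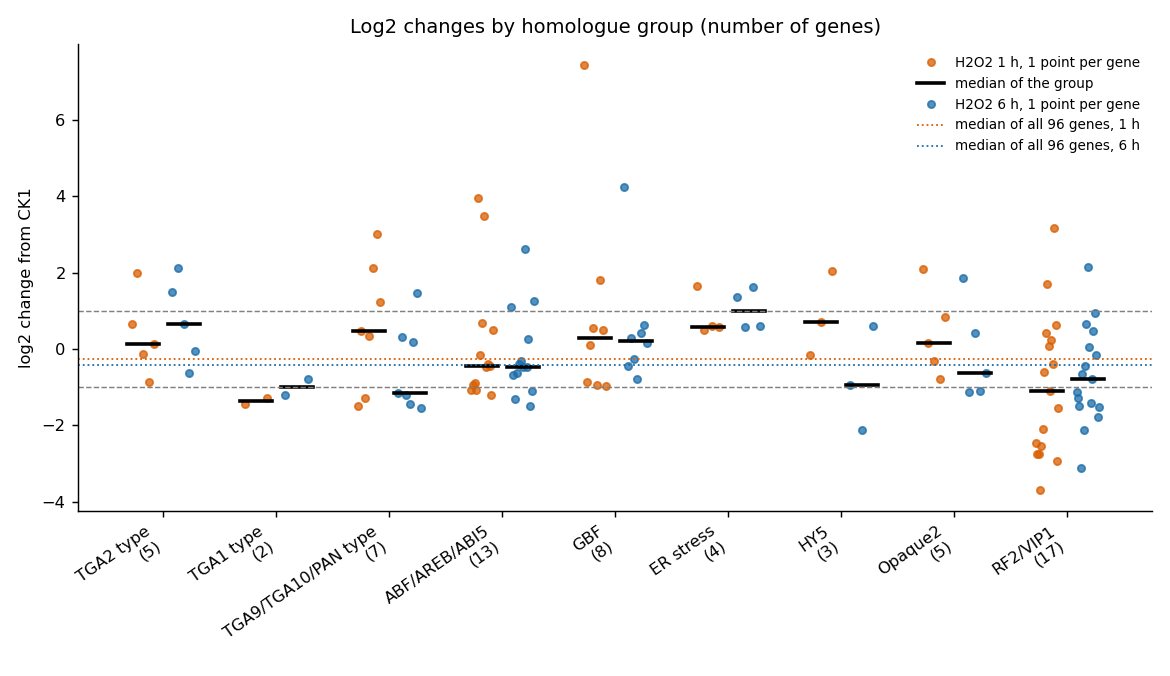
Log2 change from CK1 of the genes of 9 homologue groups after H2O2 for 1 h and 6 h, 1 point per gene, with the group's median as a black bar, the medians of all 96 genes as dotted lines and the 2-fold and 0.5-fold limits dashed. The RF2 and VIP1 group has medians of -1.11 and -0.78. All 4 genes of the endoplasmic reticulum stress group lie above 0 at both times, as do 43 of all 96 genes at 1 h and 39 at 6 h.

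The 4 relatives of bZIP factors of the unfolded protein response were above CK1 at both times, as were 43 of all 96 genes at 1 h and 39 at 6 h. They are 3 assays, since BdbZIP8 and BdbZIP9 share primers. At 1 h BdbZIP9, BdbZIP15 and BdbZIP38 stood at 0.51 to 0.60, under the well error SD of 1.44. The group's medians were 0.59 and 0.99. These medians were -1.04 and -1.05 with CK3 as the control, and -0.26 and 0.17 with the mean of the 3 controls. BdbZIP15 (bradi1g35790, chromosome 1) is the homologue of rice OsbZIP50, whose transcript is spliced by the stress sensor IRE1. Its Ct was 25.97 in CK1, 23.06 at 1 h and 23.12 at 6 h, and its log2 change 0.60 and then 1.63. At 6 h its level of -6.44 was the highest of the 13 seedling samples, though the next sample, SA for 6 h, had -6.45. BdbZIP8 and BdbZIP9, homologues of the membrane-bound AtbZIP49, share primers and gave 1.65 and 0.51 at 1 h and 1.37 and 0.58 at 6 h. BdbZIP38, a homologue of AtbZIP28, which is released from the membrane under stress, gave 0.58 and 0.60.

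The 3 relatives of HY5, which promotes light-dependent development in Arabidopsis, had a median of 0.71 at 1 h and -0.93 at 6 h, the latter 0.29 without the reference gene. The median at 1 h turned to -0.57 with the mean of the 3 controls and to -4.58 with CK3. BdbZIP28 (bradi2g04590, chromosome 2) had Ct values of 33.61, 30.59 and 34.51, with log2 changes of 0.71 and -2.12. BdbZIP16 had 27.36, 25.21 and 27.07, with changes of -0.16 and -0.93. BdbZIP60 was late, with a Ct of 38.77, 34.43 and 36.95, and its changes of 2.03 and 0.60 are less certain. From 1 h to 6 h the median of the 3 genes was -1.43, and it was -1.28 and -2.52 with the median Ct and with no reference.

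Of the 13 ABF, AREB and ABI5 relatives, 2 were higher (15.4%) and 3 lower (23.1%) at 1 h. At 6 h 3 were higher and 3 lower (23.1% each). Over all 96 genes these shares were 18.8% and 27.1% at 1 h and 16.7% and 29.2% at 6 h. The group's medians were -0.45 and -0.48, and 0.01 and 0.13 with the median Ct as the reference. In 4 of the 13 a Ct reached 35 or more. Of the 8 G-box binding relatives, 2 were higher (25.0%) at 1 h and 1 (12.5%) at 6 h, and none was lower at either time. Their medians were 0.30 and 0.22. These turned below 0 with every other control, to -0.18 and -0.14 with CK2, -0.70 and -0.90 with the mean of the 3 controls and -2.13 and -2.48 with CK3. The 5 Opaque2 relatives had medians of 0.16 and -0.63, the latter 0.59 without the reference gene, with BdbZIP2 as the highest at both times. The median at 1 h was -1.44 with the mean of the 3 controls and -4.68 with CK3. BdbZIP11, the relative of the zinc deficiency regulators AtbZIP19 and AtbZIP23, was at 0.44 and 1.11. It was at -0.01 and 0.66 with CK2, -1.03 and -0.36 with the mean of the 3 controls and -3.52 and -2.85 with CK3, so it passed the 2-fold limit only against CK1. The remaining 31 genes, in none of these lists, had medians of -0.67 and -0.61.

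By intron pattern in the bZIP domain, the 4 patterns with at least 13 genes had medians at 1 h from -0.42 for pattern b (24 genes) to 0.34 for pattern e (13 genes). Pattern a (23 genes) had -0.36 and pattern h (27 genes) had -0.38. At 6 h the values for a, b, e and h were -0.63, -0.42, -0.06 and -0.04. Pattern e is made up of TGA group genes, so its value is not a separate observation.

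In 8 genes the Ct was 35 or more in CK1 or an H2O2 sample, so their values come from the last cycles of the run and are the least sure. BdbZIP1 (bradi1g04510, chromosome 1), a G-box binding relative, had the highest change of all 96 genes at 1 h. Its Ct was 38.20 in CK1, 28.46 at 1 h and 32.74 at 6 h, giving log2 changes of 7.43 and 4.24. CK1 was the lowest of the 13 seedling samples for BdbZIP1, at -20.30 against -18.21 to -14.21 in the 10 other treatments, and H2O2 for 1 h, at -12.87, was the highest. BdbZIP14 (bradi1g35550, chromosome 1) was the lowest of all genes at 1 h, with Ct values of 33.73, 35.55 and 34.97 and changes of -4.13 and -2.46. Among these 8 genes BdbZIP14 was also the lowest at 6 h. BdbZIP37, an ABF relative and homologue of rice OsbZIP12, had Ct values of 35.98, 29.72 and 35.15, and its level at 1 h was the highest of the 34 samples, a gene named here after its values were seen. Leaving the 8 genes out gave 14 higher and 23 lower genes at 1 h, and 13 and 26 at 6 h.

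The pairs with the same primers show how far a single gene's value can be read. BdbZIP41 and BdbZIP42, relatives of the G-box binding factors, were at -0.94 and 1.81 at 1 h, on opposite sides of CK1, and at -0.79 and 0.43 at 6 h. BdbZIP32 and BdbZIP33 were at -1.38 and 0.20 at 1 h and at -0.98 and 0.07 at 6 h. BdbZIP78 and BdbZIP79 gave -1.11 and 0.24 and then -1.41 and -0.78. BdbZIP50 and BdbZIP51, both ABF relatives, gave 3.47 and -0.47 at 1 h and 2.61 and -0.48 at 6 h, with a CK1 Ct of 36.16 and 33.97. The pairs BdbZIP22 and BdbZIP27, and BdbZIP94 and BdbZIP95, were on the same side of the 0.5-fold limit at both times.

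**Figure D4:**
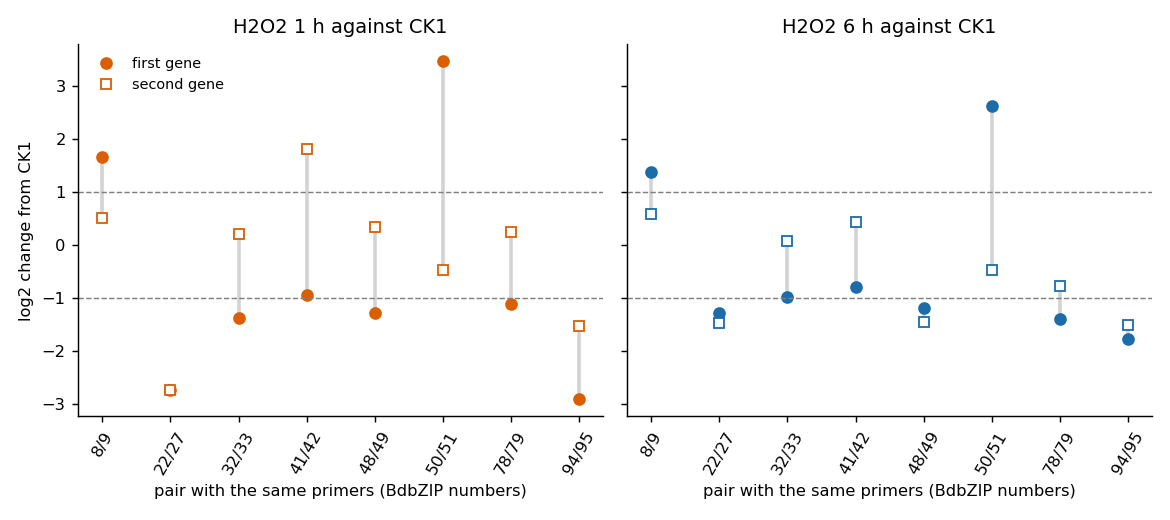
Log2 change from CK1 of both genes of the 8 pairs with identical primers, at 1 h (left) and 6 h (right), joined by a grey line, with dashed lines at the 2-fold and 0.5-fold limits. The wells of a pair differ by 0.00 to 3.94 at 1 h and by 0.20 to 3.09 at 6 h.

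A level can be placed among the other conditions without any control sample. It still rests on BdGAPD, whose Ct ran from 14.73 to 23.24 in the series. Over the 34 samples, the level at 1 h of H2O2 was the highest in 2 genes (BdbZIP37 and BdbZIP81) and the lowest in 3 (BdbZIP10, BdbZIP14 and BdbZIP71). At 6 h it was neither the highest nor the lowest in any gene. The level at 1 h was among the 5 highest of the 34 in 4 genes and among the 5 lowest in 26. At 6 h these numbers were 1 and 18. The 34 samples include organs and treatments set against CK2 or CK3. The median level of the 96 genes was -9.32 in CK1 and -6.34 in CK3, against -9.79 at 1 h and -9.93 at 6 h of H2O2. How far the ranks follow from this set of samples was not tested. Among the 13 seedling samples, a set chosen after seeing the data, H2O2 for 1 h was the highest in 9 genes and the lowest in 14, and H2O2 for 6 h the highest in 1 and the lowest in 3. In the 10 other treatments these numbers ran from 1 to 23 and from 1 to 34. CK1 was the highest in 12 genes and the lowest in 12. Of the 18 genes at least 2-fold higher at 1 h, CK1 was the lowest of the 13 samples in 8, and of the 26 at most 0.5-fold it was the highest in 11. At 6 h the same held for 9 of 16 and 10 of 28. How much of these changes belongs to CK1 and how much to the treatment cannot be told apart with 1 control sample.

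The other untreated samples, CK2 and CK3, are the labels' controls of other treatments. Over the 96 genes, the median difference in level from CK1 was -0.21 for CK2 and 2.59 for CK3, and the Ct of BdGAPD was 15.72 and 20.08. The median difference of CK3 from CK1 was thus larger than the median change after H2O2 at either time. With CK2 as the control, 14 genes were higher and 18 lower at 1 h, and 12 and 14 at 6 h. With CK3, 10 were higher and 69 lower at 1 h, and 9 and 73 at 6 h. Of the 32 named genes past a limit at 1 h, 29 kept their direction with CK2 and 21 with CK3, and 17 and 17 were still past the limit on that side. At 6 h, of 29 such genes, 22 kept it with CK2 and 18 with CK3, and 12 and 15 were still past the limit. Many of these genes were named for extreme changes from CK1 in the same treated samples. The number that kept their direction follows in part from that choice, and such counts are not given for all 96 genes. With the median Ct as the reference every gene shifts by the same amount, which is smaller than the limits. No change past a limit could therefore turn, and 27 of the 32 and 20 of the 29 were still past it. The medians of the 11 groups at the 2 times depended on the control as well. With CK3 all 22 were below 0, which turned the sign of 12, and 9 turned with the mean of the 3 controls and 6 with CK2.

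**Figure D5:**
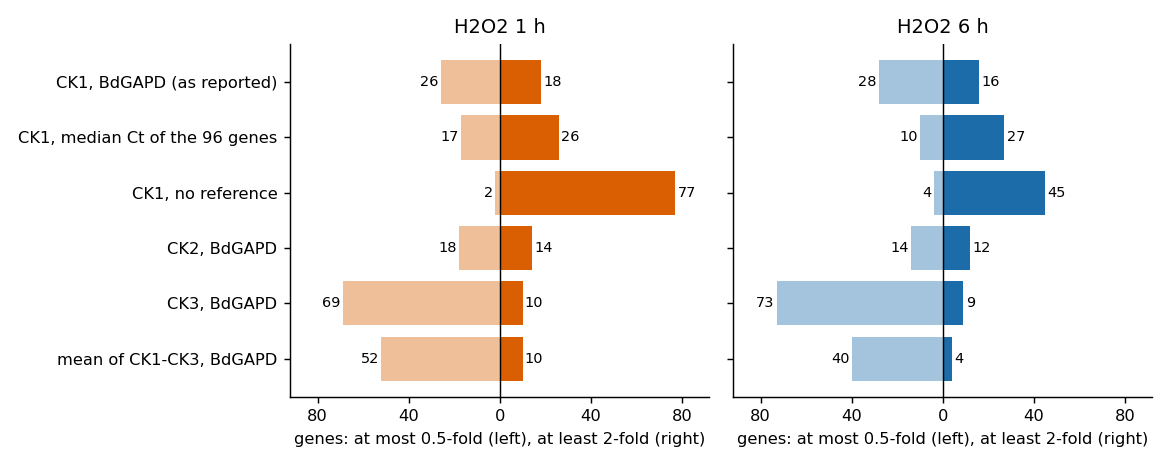
Number of the 96 BdbZIP genes at most 0.5-fold (pale bars, to the left) and at least 2-fold (dark bars, to the right) after H2O2 for 1 h and 6 h, under 6 choices of control and reference. The counts run from 2 lower and 77 higher genes at 1 h without a reference gene to 73 lower and 9 higher at 6 h with CK3 as the control.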

How the data were processed

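The deposited tables of the series were read. The authors deposited Ct values (arbitrary PCR cycles, no normalization), normalized expression as a ratio to BdGAPD, and fold changes as a ratio to a control. Per the labels, cDNA from 3.0 µg of total RNA was diluted 20 times and amplified with SYBR Green over 40 cycles. How the 3 stated qPCR repeats became 1 Ct is not given in the sources used here. Depth is unknown, since a Ct is not a number of molecules. The ratio tables were used for joining wells to genes (all 28 fold changes equal in 96 of 96 genes, at most 1 shared with another well), for checks within 0.1 log2, and as an alternative. In the normalized table the ratio of H2O2 to CK1 followed the raw Ct difference of the treated sample in 82 and 88 genes, so that a later Ct is a higher value there. The table's fold changes are the authors' own comparison, and none is printed.

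From the Ct values, -ddCt was taken with BdGAPD and CK1, as in the study's methods. With 1 sample per group no p-value was computed. Named genes are the 6 highest and 6 lowest with Ct below 35 at each time, the 4 highest and 4 lowest between the times, all TGA, unfolded protein response and HY5 relatives, all same-primer genes, the highest and lowest late genes, and BdGAPD. Other names were added after their values were seen. The genes, lists and rules were chosen with earlier results of these data known. Homologue groups follow the study's homologue tables. Locus names come from its gene table, whose genome build is not given in the sources used here, and 0 of 96 matched the RefSeq table at hand, so no coordinates or sequences are given. Alternatives changed the control, the reference, the genes, the table and the limits. Calculations were tested on simulated Ct values. Python 3.11.15, numpy 2.4.6, pandas 2.3.3 and matplotlib 3.10.9 were used.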

Additional observations from a re-analysis of the deposited data

Results flagged for a closer look

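BdbZIP85 and BdbZIP6 were past a limit in opposite directions at the 2 times. For BdbZIP85, a TGA9, TGA10 and PAN relative, the log2 change from CK1 was 1.24 at 1 h and -1.53 at 6 h, from Ct values of 29.31 in CK1, 25.76 at 1 h and 29.62 at 6 h. For BdbZIP6, an ABF relative, it was -1.08 at 1 h and 1.10 at 6 h, from Ct values of 35.55, 34.32 and 33.23, late in CK1. The differences between the times were not tested, since each time has 1 sample. BdbZIP6 was chosen for its opposite values after they were seen, and its change at 1 h is smaller than the well error SD of 1.44.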

How the results depend on the processing

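No paired analysis was possible because each condition has 1 sample, and leaving out a replicate was likewise not possible. These data have 1 control, 1 reference gene and a well error SD of 1.44 at 1 h and 0.91 at 6 h, and no depth.

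With the mean of the 3 controls, the median log2 change was -1.11 at 1 h and -0.86 at 6 h, with 10 higher and 52 lower genes at 1 h and 4 and 40 at 6 h. Log2 changes past a limit that turned were at 1 h -0.15 for BdbZIP44, -0.71 for BdbZIP68 and -0.06 for BdbZIP24, and at 6 h -0.28 for BdbZIP68 and -0.35 for BdbZIP50.

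With CK2 as the control, the median log2 change was -0.06 at 1 h and 0.04 at 6 h, with 14 higher and 18 lower genes at 1 h and 12 and 14 at 6 h. The values that turned were at 1 h 0.04 for BdbZIP61 and 0.17 for BdbZIP95, and at 6 h -0.69 for BdbZIP81, 0.03 for BdbZIP94, 0.33 for BdbZIP22, 0.22 for BdbZIP27, 0.16 for BdbZIP18, 0.11 for BdbZIP62 and 0.19 for BdbZIP95.

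With CK3 as the control, the median log2 change was -2.90 at 1 h and -2.48 at 6 h, with 10 higher and 69 lower genes at 1 h and 9 and 73 at 6 h. The values that turned were at 1 h -4.20 for BdbZIP44, -0.30 for BdbZIP80, -0.68 for BdbZIP2, 0.91 for BdbZIP29, 1.12 for BdbZIP40, -4.60 for BdbZIP68, -2.70 for BdbZIP24, -0.21 for BdbZIP85, -0.48 for BdbZIP8, -1.65 for BdbZIP42 and -3.85 for BdbZIP50, and at 6 h -0.60 for BdbZIP81, -3.38 for BdbZIP44, -0.92 for BdbZIP2, 1.47 for BdbZIP29, -1.48 for BdbZIP63, -4.17 for BdbZIP68, -2.58 for BdbZIP24, -1.91 for BdbZIP5, -0.76 for BdbZIP8, -1.77 for BdbZIP15 and -4.71 for BdbZIP50.

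With no reference gene, the median log2 change was 2.06 at 1 h and 0.80 at 6 h, with 77 higher and 2 lower genes at 1 h and 45 and 4 at 6 h. At 6 h against 1 h the median was -0.96, with 2 higher and 46 lower. The values that turned were at 1 h 0.17 for BdbZIP52, 0.23 for BdbZIP61, 0.81 for BdbZIP18, 1.02 for BdbZIP48, 0.88 for BdbZIP62, 1.04 for BdbZIP96, 0.93 for BdbZIP32, 1.20 for BdbZIP78 and 0.77 for BdbZIP95, and at 6 h 0.06 for BdbZIP18, 0.02 for BdbZIP48 and 0.01 for BdbZIP62.

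With the median Ct of the 96 genes as the reference, the median log2 change was 0.22 at 1 h and 0.20 at 6 h, with 26 higher and 17 lower genes at 1 h and 27 and 10 at 6 h. At 6 h against 1 h the median was 0.27, with 17 higher and 15 lower. This reference shifts every gene by the same amount, smaller than the limits, so no log2 change past a limit could turn.

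With the normalized table as deposited, the median log2 change was -1.96 at 1 h and -0.77 at 6 h, with 2 higher and 73 lower genes at 1 h and 5 and 43 at 6 h. At 6 h against 1 h the median was 0.92, with 40 higher and 2 lower. Its H2O2 values run with the Ct of the treated sample, so a sign that turned did so by construction, and 9 of 32 named genes past a limit at 1 h and 4 of 29 at 6 h kept their direction. Those that turned were at 1 h -5.47 for BdbZIP87, -5.35 for BdbZIP81, -4.17 for BdbZIP44, -4.44 for BdbZIP80, -4.40 for BdbZIP2, -4.09 for BdbZIP3, 1.37 for BdbZIP29, 0.88 for BdbZIP88, 0.67 for BdbZIP40, 0.62 for BdbZIP94, 0.45 for BdbZIP22, 0.45 for BdbZIP27, -3.32 for BdbZIP68, -4.31 for BdbZIP24, 0.18 for BdbZIP66, 0.23 for BdbZIP43, -3.57 for BdbZIP85, -1.20 for BdbZIP8, -4.12 for BdbZIP42 and 1.87 for BdbZIP14, and at 6 h -2.69 for BdbZIP81, -4.17 for BdbZIP44, -3.07 for BdbZIP2, 1.90 for BdbZIP29, 1.01 for BdbZIP88, 0.55 for BdbZIP94, 0.07 for BdbZIP22, 0.28 for BdbZIP27, -6.45 for BdbZIP75, -3.62 for BdbZIP63, -3.32 for BdbZIP68, -3.31 for BdbZIP24, 1.27 for BdbZIP52, 0.93 for BdbZIP61, 0.88 for BdbZIP28, 0.66 for BdbZIP66, 0.33 for BdbZIP85, -2.71 for BdbZIP5, 0.24 for BdbZIP49, -2.82 for BdbZIP15, 0.31 for BdbZIP95 and 1.27 for BdbZIP14.

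With limits of 4-fold and 0.25-fold, 11 genes were higher and 15 lower at 1 h, 7 and 7 at 6 h, and 2 and 6 at 6 h against 1 h. Leaving out genes with a Ct of 35 or more, or 1 gene of each same-primer pair, moved no median over all genes by 0.1 and no count by over 1.5 times, and moved 4 and 8 of the 22 medians of gene lists by more than 0.1. Every one of these 22 was higher by over 0.1 with the median Ct or with no reference, which turned the sign of 3 and 10. With CK3 as the control all 22 were lower by over 0.1 and 12 turned, with the mean of the 3 controls 17 were lower and 4 higher and 9 turned, and with CK2 7 were lower and 11 higher and 6 turned. Among the 13 seedling samples in place of 34, H2O2 for 1 h was the highest in 9 genes in place of 2 and the lowest in 14 in place of 3, and H2O2 for 6 h the highest in 1 and the lowest in 3 in place of 0 each. Without BdbZIP50 and BdbZIP51 the well error SD was 1.13 at 1 h and 0.52 at 6 h, and 18 genes in place of 10 and 44 in place of 16 were past 2 SD. The last 2 alternatives were chosen after seeing the data. Except for the table whose construction sets the sign, the cause of these shifts was not tested.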
